A study of Mus musculus with 44 samples.

Results

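The clustered protocadherins are a family of cell-surface adhesion genes encoded side by side on mouse chromosome 18, and their messenger RNA was followed here in the dorsal hippocampus of mice with and without a deletion in Kdm5b. Members were selected by gene name as every alpha, beta or gamma protocadherin in the count tables, which gave 58 of 27179 genes: 12 alpha, 22 beta, 12 gamma A and 7 gamma B genes, and 5 C-type genes (Pcdhac1, Pcdhac2, Pcdhgc3, Pcdhgc4 and Pcdhgc5). In the GRCm38.p6 assembly the alpha genes lie at chr18:36930285-37188897, the beta genes at chr18:37264998-37521419 and the gamma genes at chr18:37661775-37841873. Although the rule used names only, the family was chosen for study by the genotype differences of Pcdhga2 and Pcdhga9 in these same libraries, so their differences, those of Pcdhb8 and that of Pcdhb9 at 3 h are given as descriptions without a p-value. Counts of members below hold these genes wherever they were called, reached an unadjusted p under 0.05 or shared a direction. Such a count describes values that led to the choice or were known when it was made, and nothing is read from it.

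The 36 libraries came from the dorsal hippocampus of young adult mice, with 1 mouse per library and 6 mice in each of 6 groups. The genotypes were wild-type (WT) and homozygous Kdm5bDARID/DARID (mutant hereafter), an internal germline deletion, present in all tissues, that removes the ARID domain and part of the JmjN domain of KDM5B, an enzyme that takes methyl groups off histone H3 lysine 4. Mice were taken at baseline from the home cage (0 h) or at 1 h or 3 h after contextual fear conditioning with foot shocks, and 3 mice of each group were labelled male and 3 female. All mice, controls included, were F2 animals of a cross between C57BL/6J mutant males and 129S2/Sv females. Each mouse therefore inherited its own mixture of both strains over chromosome 18, and the strain origin of the protocadherin genes in each mouse was not tested. A further 8 samples of whole hippocampus at baseline stayed outside the data used here.

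The counts of a library summed to between 40274435 and 107000233, with a median of 66549999. The members held between 0.0601% and 0.0747% of them. Counting error was therefore small for all but the lowest members, and 57 of the 58 passed the filter on low counts. Counts of Xist and of Y-linked genes went against the labelled sex, in the library labelled WT 1 h male 1 and in the library labelled mutant 3 h female 2, and the comparisons that use them are given with and without them. Whether the genotype and time labels of these libraries hold was not tested, and an exchange of the one for the other would change both. Kdm5b itself had 75.6 to 97.1 CPM (counts scaled to a library of 1000000) in all 36 libraries, and the genotypes overlapped. The count covers the whole gene, including the exons that remain in the mutant, so it does not check the deletion. Markers of dentate granule cells and of CA1 and CA3 pyramidal cells were present in every library.

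Clustered protocadherins form adhesive complexes between cell membranes that carry the same set of members. Each neuron transcribes only a few of the alpha, beta and gamma genes, by choosing among alternative promoters, and the resulting identity lets branches of one neuron recognise and avoid each other. Promoter choice depends on DNA methylation and on loops held by CTCF and cohesin. In the alpha and gamma clusters each variable exon is spliced to constant exons shared by the whole cluster, whereas each beta gene is a single exon. C-type members sit at the ends of the alpha and gamma clusters and are transcribed in most neurons rather than chosen at random.

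The 3 most abundant members were C-type genes. Pcdhgc5 reached 108 ± 8.58 CPM (mean ± SD, n = 36 mice) and Pcdhgc3, the member whose protein is best known for shaping dendrites in cortical neurons, reached 73.6 ± 5.002 CPM. Pcdhac2 followed with 36.3 ± 3.19 CPM. The other C-type genes lay among the variable members, Pcdhgc4, whose loss causes neuronal death during development, at 11.4 ± 1.05 CPM and Pcdhac1 at 3.83 ± 0.530 CPM. The 5 C-type genes together held 34.6% of all protocadherin counts, against 28.2% for the 22 beta genes, 21.7% for gamma A, 9.43% for gamma B and 6.05% for the alpha genes. The summed level of the whole family was 676 ± 45.5 CPM and ranged from 587 to 757 CPM.

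Among the variable members, Pcdhga11 was the highest with 27.2 ± 4.63 CPM, and Pcdhb17 led the beta genes with 17.99 ± 2.17 CPM. Pcdha12 led the alpha genes with 8.43 ± 1.14 CPM and Pcdhgb6 the gamma B genes with 12.02 ± 1.94 CPM. At the low end, Pcdhga1 had 6.23 ± 1.16 CPM, Pcdhgb4 5.17 ± 0.719 CPM, Pcdha8 0.437 ± 0.293 CPM and Pcdhb1 0.350 ± 0.222 CPM. Pcdha4 was the only member that failed the filter, with 25 counts over all libraries and 0 counts in 22 of 36. A count of 0 allows up to 3 counts, which is 0.0280 to 0.0745 CPM at the depths of these libraries and covers counting error only. The levels by member in chromosome order show that 18 of the 58 genes had a mean above 10 CPM.

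**Figure D1:**
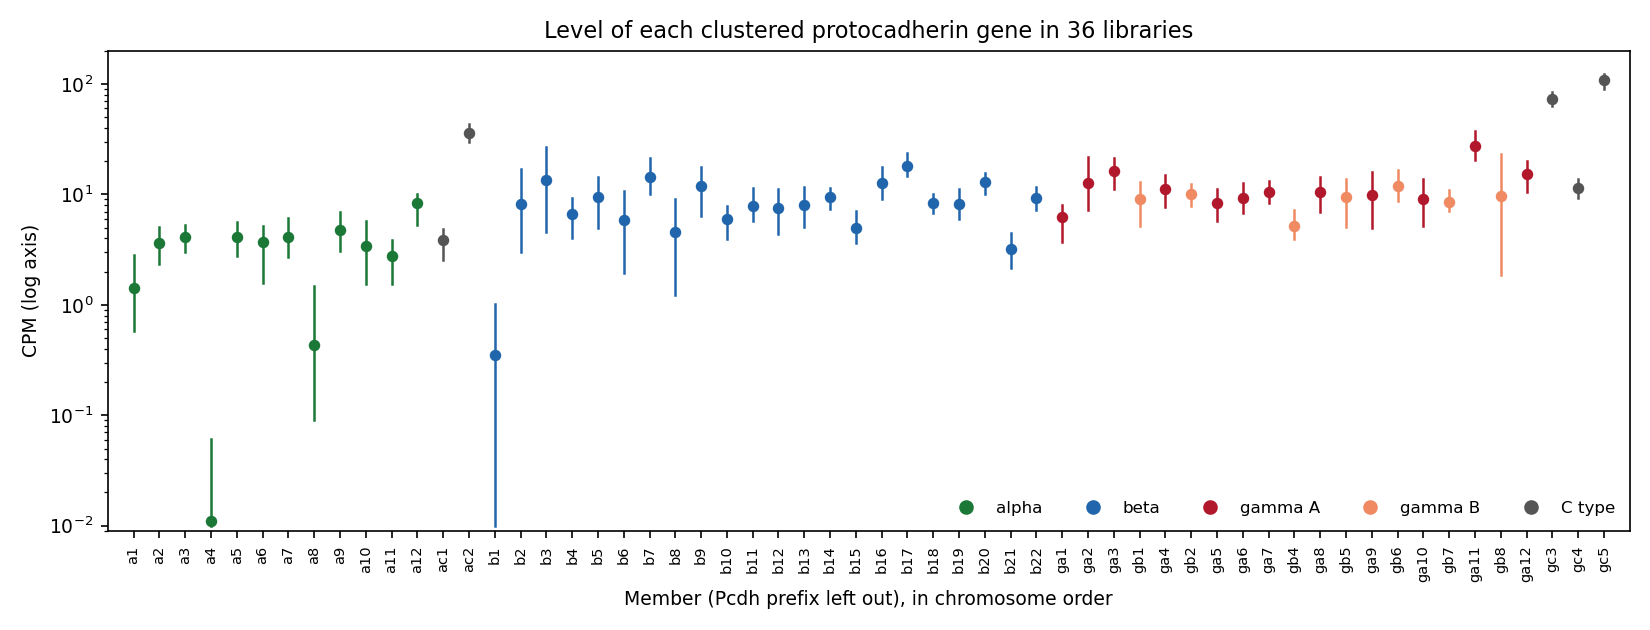
Level of each clustered protocadherin gene in 36 libraries, in CPM on a log axis, with genes in chromosome order and coloured by type. Points are means and lines run from the lowest to the highest library. The C-type gene Pcdhgc5 is highest at 108 CPM, whereas Pcdha4, at a mean of 0.0110 CPM, sits at the floor of the axis, where values under 0.01 CPM are drawn.

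Levels of different genes were compared per kilobase of exon that belongs to a member alone, which could be computed for 55 members. The counts divided by this length were those of the whole gene, so a short length of its own raises a member's value. That length was 1821 of 5499 exon bases for Pcdhgc3 and 1256 of 4756 for Pcdhga11. On this scale Pcdhgc3 was the highest at 40.4 CPM per kb, Pcdhgc5 was next at 23.5 and then Pcdhga11 at 21.7. The median per kb was 11.98 for the C-type genes, 4.15 for gamma A, 3.62 for gamma B, 1.94 for beta and 1.71 for alpha genes. The order of genes and of types depended on the length used. Over all annotated exon bases, shared exons included, Pcdhgc5 had 14.2 CPM per kb, Pcdhgc3 13.4, Pcdhac2 6.16 and Pcdhga11 5.72. The type medians were then 6.16 for the C-type genes, 2.13 for gamma A, 1.94 for beta, 1.82 for gamma B and 0.684 for alpha genes, so that beta and gamma B genes changed places. A median of 55.2% of the 100-base windows of an alpha gene, 43.7% of a gamma A gene, 46.0% of a gamma B gene and 44.1% of a C-type gene occurred in another gene too, so reads from the constant exons cannot be ascribed to 1 member. For beta genes that share was 0.207%, and their counts are the least exposed to it. How the authors' counting treated reads that fit several members, or the strand, was not given in the sources used here.

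The members varied more between mice of the same group than most genes of like abundance. The between-mouse SD, taken on log2 CPM around the 6 group means, had a median of 0.245 over the 57 members, and 49 of 57 lay above the median of the 500 genes nearest in level. Beyond 90% of like genes lay 12 members, of which 7 were beta genes, 3 gamma A and 2 gamma B. Among the 12 were Pcdhb1, Pcdhb2, Pcdhb3, Pcdhb5, Pcdhb6, Pcdhb7, Pcdhgb5 and Pcdhgb8, which vary together between mice as described below. Members in these counts are therefore not separate observations. The largest SDs were those of Pcdhb1 at 1.11, Pcdhgb8 at 1.06 and Pcdha8 at 0.89, and Pcdhb1 and Pcdha8 are the lowest members tested. Without the 2 discordant libraries these were 0.84, 0.99 and 0.91, so that Pcdhgb8 came first. With a prior count of 0.5 that of Pcdhb1 was 1.40. The C-type genes had the smallest median SD of the 5 types, 0.128, against 0.279 for alpha, 0.2497 for beta, 0.252 for gamma A and 0.234 for gamma B genes. The SD falls with abundance in general, and against genes of like level the C-type genes did not stand out as steady, with 3 of 5 above the median like gene. Pcdhgc3 had the smallest SD of any member, 0.0909, beside a median of 0.0901 for its like genes. Pcdhgc5 had 0.107 against 0.0839 and Pcdhgc4 0.128 against 0.146.

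Pcdhgb8, a gamma B gene at a moderate mean of 9.67 CPM, spread far more than genes of its abundance. Its level ran from 1.88 to 23.2 CPM, a 12.4-fold range, and its SD of 1.06 exceeded that of 98.6% of like genes, whose median SD was 0.18. The values fell on both sides of a gap, with 9 libraries between 1.88 and 3.30 CPM and 27 between 6.84 and 23.2 CPM. The low libraries numbered 0 in WT 0 h, 1 in WT 1 h, 3 in WT 3 h, 2 in mutant 0 h, 2 in mutant 1 h and 1 in mutant 3 h. Every group except WT 0 h thus held libraries on both sides of the gap. The library labelled mutant 3 h female 2 was one of the low ones at 2.10 CPM. Pcdhb2 and Pcdhb3 also spread widely, each with an SD of 0.59 over ranges of 3.02 to 16.9 CPM and 4.61 to 26.7 CPM.

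**Figure D2:**
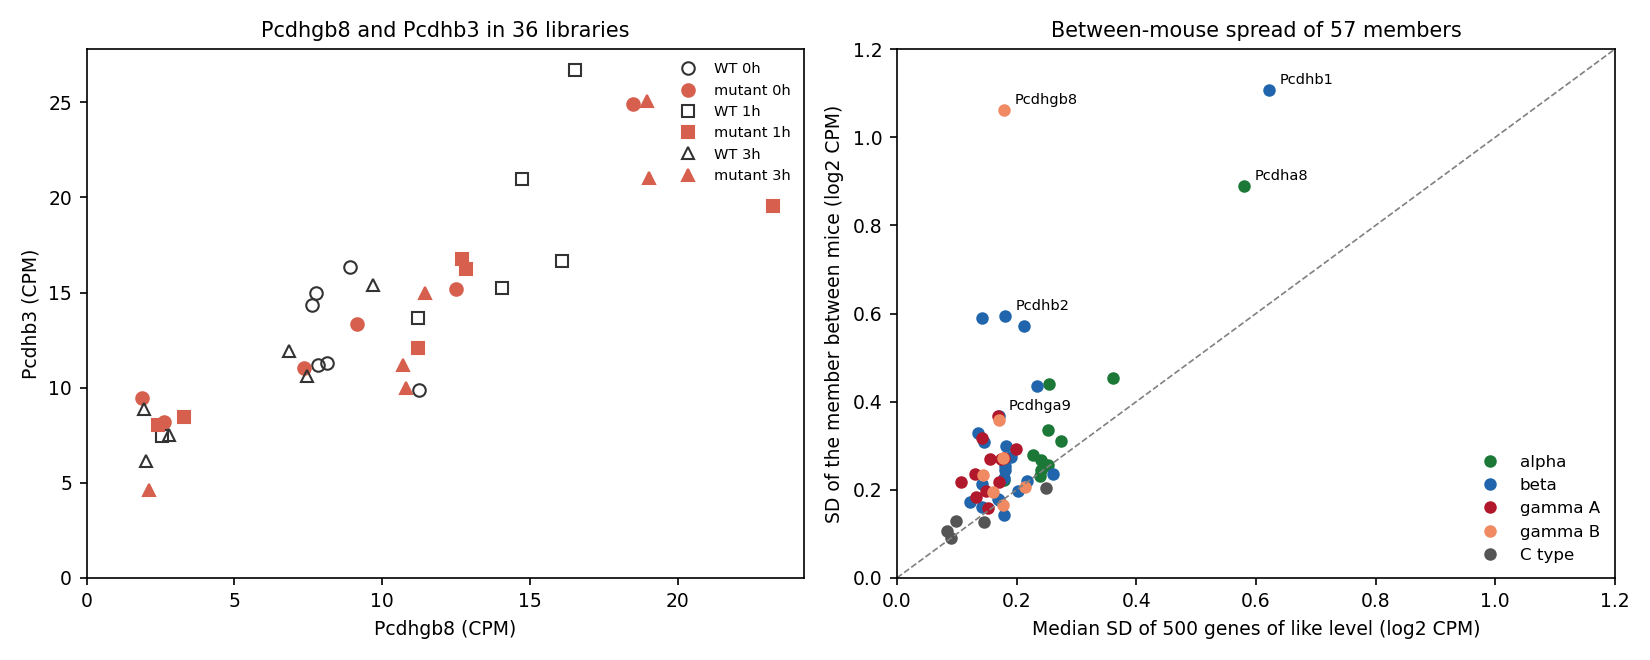
Left, the level of Pcdhgb8 against that of Pcdhb3 in CPM, with 1 point per library and symbols by group. The 9 libraries up to 3.30 CPM of Pcdhgb8 stand apart from the 27 from 6.84 CPM upwards. Right, the between-mouse SD of log2 CPM of 57 members against the median SD of 500 genes of like level. Members above the dashed line of equality, 49 of 57, varied more than the median gene of their level.

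The first question of the design is whether the family differs between genotypes at each time. In whole tissue, fewer cells of a type and less RNA per cell cannot be told apart, for this and every later comparison. At baseline no member passed an adjusted p of 0.05 in edgeR's quasi-likelihood test, where 0% of 17336 genes were called. DESeq2 also called 0 members (0.0866% of genes), and at an unadjusted p under 0.05, reached by 6.15% of genes, edgeR gave 7 members higher and 3 lower in mutants. Of the 57 members 33 had a positive fold change, with a median log2 value of 0.04 against −0.0019 for all genes tested. At 1 h edgeR called 0 members and 0% of 17261 genes, with 9 members higher and 1 lower at an unadjusted p under 0.05 (8.62% of genes). DESeq2 called 0.643% of genes at 1 h, among them 2 members, the pair Pcdhga2 and Pcdhga9 that led to the choice of the family. At 3 h edgeR called 0 members and 0.0115% of 17394 genes, with 8 higher and 2 lower at an unadjusted p under 0.05 (6.36% of genes). DESeq2 called 0.271% of genes at 3 h, among them 3 members, Pcdhb8, Pcdhb9 and Pcdhga2, whose values at 3 h were also known. Over the 3 times, 21 members were positive at each time and 9 negative at each time. Pcdhga2 and Pcdhga9 are among the 21, and the share over all genes was not computed, so nothing is read from this. The counts at an unadjusted p at 1 h and 3 h also hold members whose values were known.

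Pcdhga2, a gamma A gene in the upstream stretch of the gamma cluster, had the higher mutant mean at all 3 times. At 0 h its level was 7.29, 10.9 and 15.5 CPM in WT mice (lowest, median and highest of 6) and 7.97, 16.3 and 19.7 CPM in mutants, so the groups overlapped. At 1 h it was 7.43, 9.54 and 12.8 CPM in WT mice and 14.6, 16.7 and 21.9 CPM in mutants. Every mutant library at 1 h lay above every WT library. At 3 h it was 7.76, 9.07 and 11.9 CPM in WT mice and 10.1, 14.9 and 17.2 CPM in mutants, with a small overlap. The log2 fold changes were 0.49 ± 0.23 (SE) at 0 h, 0.78 ± 0.13 at 1 h and 0.62 ± 0.13 at 3 h.

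Pcdhga9, a gamma A gene further downstream, followed the same course. At 0 h it ran over 4.94, 7.89 and 11.5 CPM in WT mice and 6.71, 12.3 and 16.0 CPM in mutants, again with overlap. At 1 h the WT mice had 5.28, 7.08 and 10.1 CPM and the mutants 10.6, 13.9 and 15.0 CPM, with no overlap. At 3 h the WT mice had 6.40, 6.81 and 10.2 CPM and the mutants 6.95, 10.7 and 15.7 CPM, and the ranges overlapped. The log2 fold changes were 0.57 ± 0.23 at 0 h, 0.85 ± 0.14 at 1 h and 0.55 ± 0.17 at 3 h.

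Complete separation of 6 mutant from 6 WT libraries in the upward direction was found in no member at 0 h, where 0.154% of 18186 genes had it. At 1 h Pcdhga2 and Pcdhga9 had it, against 0.319% of all genes, and at 3 h no member had it, against 0.17%. Since this pair brought the family forward, nothing is read from that count. Over all times 17 of 18 mutant libraries lay above the WT median of Pcdhga2 and 16 of 18 above that of Pcdhga9. This also describes the values that led to the choice, and the share over all genes was not computed. Pcdhga4 and Pcdhgc5 had 16 of 18 as well, whereas Pcdhb9, Pcdhga12 and Pcdhgc3 each had 2 of 18.

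Pcdhb8, a beta gene, had another pattern. At 3 h its level was 1.24, 2.21 and 4.24 CPM in WT mice and 2.61, 5.46 and 8.70 CPM in mutants, a log2 fold change of 1.34 ± 0.31. At 0 h it was 3.25, 4.001 and 5.43 CPM in WT mice and 3.83, 5.13 and 9.09 CPM in mutants, with a log2 fold change of 0.41 ± 0.18. At 1 h it was 3.09, 4.92 and 6.04 CPM in WT mice and 3.84, 4.52 and 5.92 CPM in mutants, and the fold change was −0.05 ± 0.16. The WT mice at 3 h were the low group, whereas the mutants had medians between 4.52 and 5.46 CPM throughout. Pcdhb9, its neighbour, was the other way round at 3 h, with 12.2, 14.0 and 16.6 CPM in WT mice against 7.90, 10.3 and 12.4 CPM in mutants, a log2 fold change of −0.46 ± 0.11.

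The 2 libraries of discordant sex moved these values. At 1 h the library labelled WT male 1 had the highest WT level of Pcdhga2, and at 3 h the library labelled mutant female 2 had the lowest mutant levels of Pcdhga2, Pcdhga9 and Pcdhb8. Without them the log2 fold change of Pcdhga2 was 0.87 at 1 h and 0.72 at 3 h, that of Pcdhga9 was 0.89 and 0.68, and that of Pcdhb8 at 3 h was 1.54. EdgeR then called 0.236% of genes at 1 h, with 2 members, Pcdhga2 and Pcdhga9, and 0.103% of genes at 3 h, with 3 members, Pcdhb8, Pcdhga2 and Pcdhga3. Of these only Pcdhga3 was not among the members whose values were known. At an unadjusted p under 0.05 the members at 3 h then numbered 19 higher and 4 lower (8.06% of genes), and those at 1 h 8 higher and 2 lower (10.3% of genes). The edgeR counts at 1 h and at 3 h, each fitted on its own libraries, thus depended on 1 library each.

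**Figure D3:**
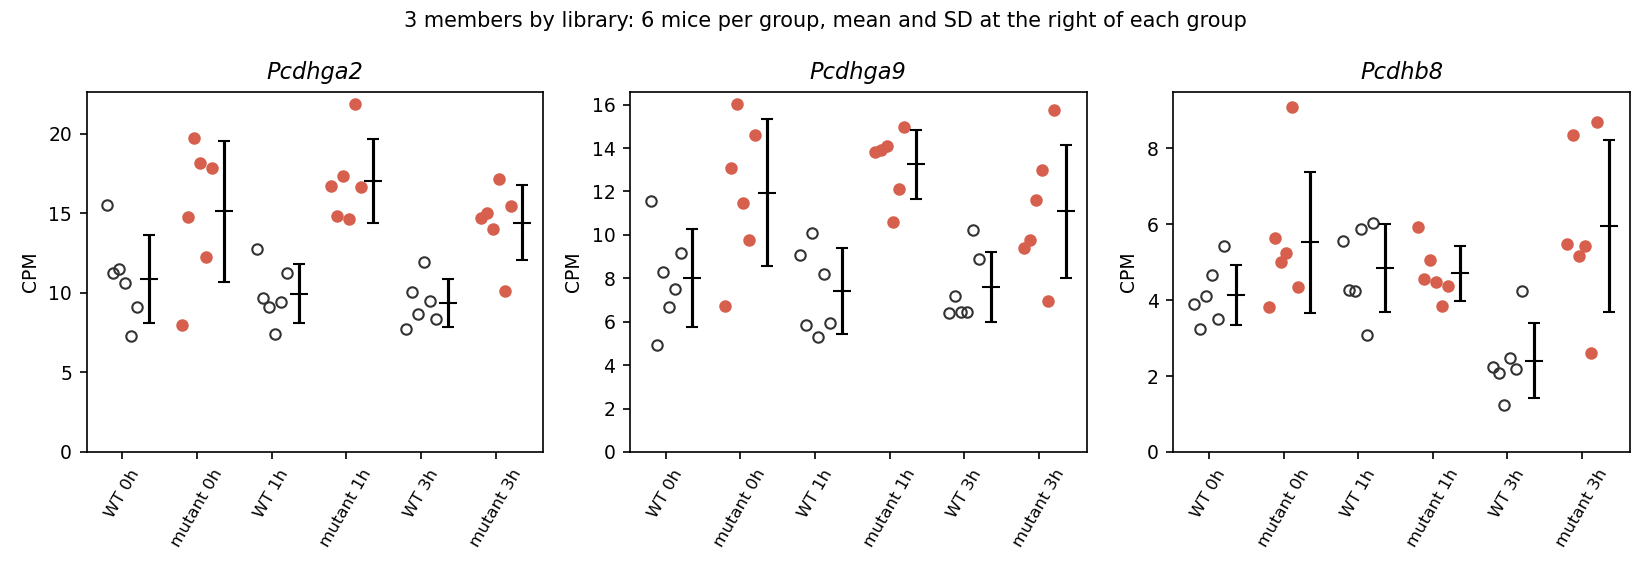
Level of Pcdhga2, Pcdhga9 and Pcdhb8 in CPM, with 1 point per mouse in 6 groups (open, WT; filled, mutant) and the mean ± SD at the right of each group. At 1 h the mutant points of Pcdhga2 and Pcdhga9 all lie above the WT points, and at 3 h the WT points of Pcdhb8 lie lowest, with a median of 2.21 CPM.

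Averaged over the 3 times on all 36 libraries, 3 members were higher in mutants at an adjusted p of 0.05 and none lower, where 1.18% of 18186 genes were called. Genotype values of all 3 in these libraries led to the choice or were known when it was made, so the count is a description. These were Pcdhga2 with a log2 fold change of 0.63 ± 0.10, Pcdhga9 with 0.65 ± 0.12 and Pcdhb8 with 0.57 ± 0.14. The call of Pcdhb8 was lost on leaving out any 1 of 7 libraries. DESeq2 called 4 members and 2.96% of genes, the fourth member being Pcdhga3. At an unadjusted p under 0.05, reached by 15.05% of genes, edgeR gave 15 members higher and 6 lower. Fold changes were positive in 39 of 57 members with a median log2 value of 0.08, against 0.0004 for all genes. By type the positive members were 8 of 11 alpha, 15 of 22 beta, 7 of 12 gamma A, 6 of 7 gamma B and 3 of 5 C-type genes. Without the 2 discordant libraries 2.58% of genes were called, with 7 members, namely Pcdha2, Pcdhb8, Pcdhb22, Pcdhga2, Pcdhga3, Pcdhga9 and Pcdhgc5.

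Gamma A genes had values in both directions. Pcdhga3, which lies next to Pcdhga2, had mean levels of 14.5 and 17.0 CPM (WT and mutant) at 0 h, 15.5 and 18.4 CPM at 1 h and 14.3 and 18.5 CPM at 3 h. Its averaged log2 fold change was 0.28 ± 0.07, which narrowly missed the threshold (edgeR adjusted p = 0.0518) and passed it without the discordant libraries at 0.32 (edgeR adjusted p = 0.00944). Pcdhga11 had 0.22 (edgeR adjusted p = 0.106). In the opposite direction, Pcdhga5 had −0.21 and Pcdhga6 −0.22 (edgeR adjusted p = 0.123 for Pcdhga6), and both lie between Pcdhga2 and Pcdhga9. The summed gamma A level was 140.9 CPM in WT and 152.4 CPM in mutant mice at 0 h, 137.7 and 159.1 CPM at 1 h and 138.6 and 151.4 CPM at 3 h. These sums contain Pcdhga2 and Pcdhga9, which make up most of the difference at each time.

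None of the C-type genes was called in the averaged comparison on all 36 libraries. Pcdhgc5 had mean levels of 101 and 112 CPM at 0 h, 104 and 113 CPM at 1 h and 107 and 112 CPM at 3 h, an averaged log2 fold change of 0.11 ± 0.03 (edgeR adjusted p = 0.103). This became 0.12 (edgeR adjusted p = 0.0463) without the discordant libraries. Pcdhgc3 had −0.07 ± 0.03 (edgeR adjusted p = 0.228), Pcdhac1 0.14 ± 0.07 (edgeR adjusted p = 0.324), Pcdhac2 −0.04 ± 0.04 and Pcdhgc4 0.06 ± 0.04. Among the other named members the averaged values were 0.05 ± 0.07 for Pcdha12, 0.09 ± 0.06 for Pcdhb17, 0.08 ± 0.09 for Pcdhga1, −0.08 ± 0.08 for Pcdhgb6 and 0.03 ± 0.07 for Pcdhgb4. The wide SE of the most variable members left their differences unresolved, as with 0.34 ± 0.32 for Pcdhgb8, 0.36 ± 0.27 for Pcdha8 and 0.49 ± 0.34 for Pcdhb1.

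**Figure D4:**
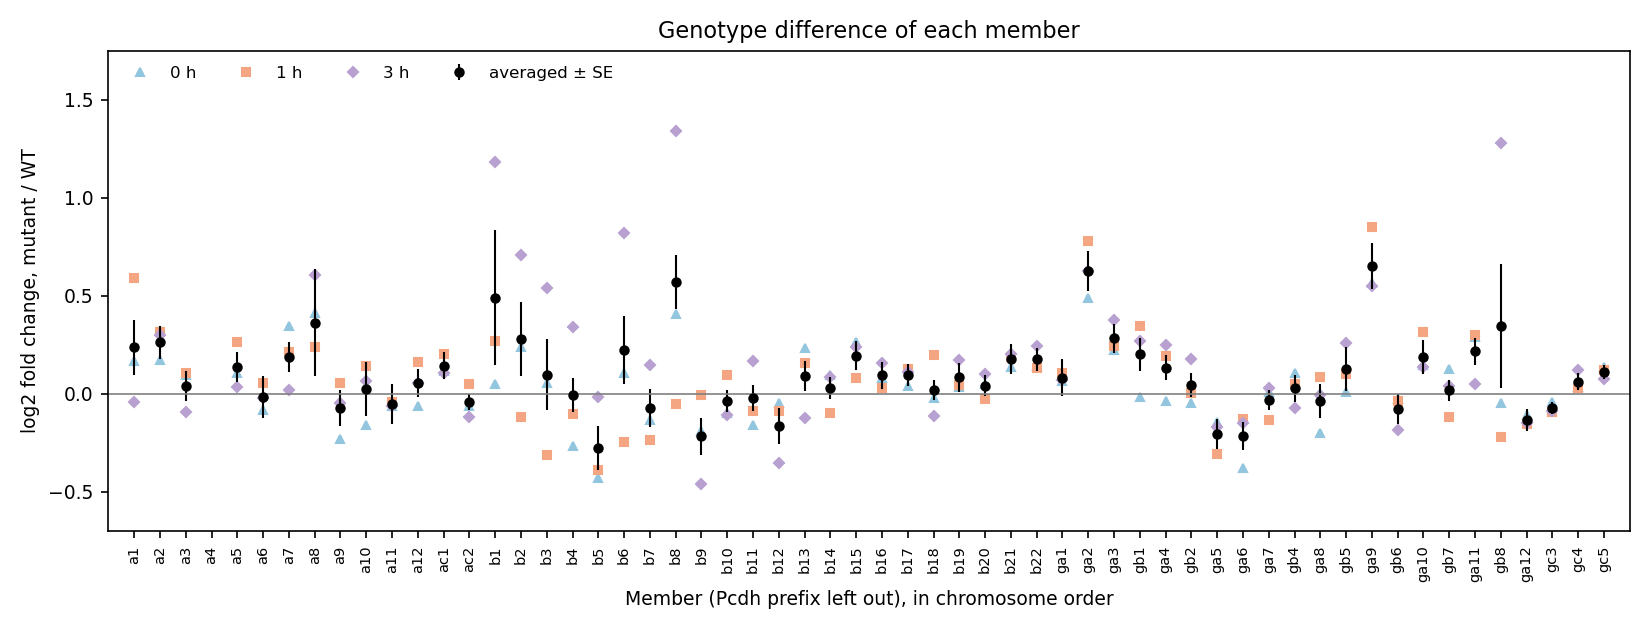
Log2 fold change of mutant over WT mice for each member in chromosome order, at 0, 1 and 3 h (coloured symbols) and averaged over the times (black points ± SE). Pcdhga2 at 0.63, Pcdhga9 at 0.65 and Pcdhb8 at 0.57 are the averaged values that passed the threshold. Genotype values of all 3 led to the choice of the family or were known then, so this is a description. Genes lying between Pcdhga2 and Pcdhga9 fall on both sides of 0.

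The second question is whether the family responds to fear conditioning. In WT mice edgeR called 0 members at 1 h against 0 h, where 0% of 17319 genes were called, and 2 members were lower at an unadjusted p under 0.05 (5.36% of genes). It called 0 members at 3 h against 0 h (0% of 17438 genes), with 6 lower at an unadjusted p under 0.05 (8.24% of genes), and 0 at 3 h against 1 h (0% of 17388 genes), with 2 higher and 6 lower (7.41% of genes). DESeq2 called 0 members in the first comparison and 1 in each of the others, Pcdhb8 both times, beside 0.459% of genes at 3 h against 0 h and 0.362% at 3 h against 1 h. The log2 fold change of Pcdhb8 was −0.81 ± 0.20 at 3 h against 0 h and −1.04 ± 0.23 at 3 h against 1 h, and both draw on the WT libraries at 3 h, whose low values were known. Without the library labelled WT 1 h male 1 edgeR called 0 members and 0.0172% of genes at 1 h against 0 h, and 0 members and 0.0171% of genes at 3 h against 1 h, where the value of Pcdhb8 was −0.95. Of the 22 beta genes 20 had a negative value at 3 h against 0 h in WT mice, with a median of −0.16, and beta genes vary together between mice as described below. Pcdhgb8 had −1.32 ± 0.55 at 3 h against 1 h in WT mice, where 3 of 6 libraries at 3 h were among its low ones, and −1.22 with WT 1 h male 1 left out.

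In mutant mice edgeR called 0 members at 1 h against 0 h, where 0.312% of 17282 genes were called, with 1 higher and 1 lower at an unadjusted p under 0.05 (11.1% of genes). It called 0 members at 3 h against 0 h (0% of 17285 genes), with 2 lower at an unadjusted p under 0.05 (8.57% of genes), and 0 at 3 h against 1 h (0% of 17247 genes), with 1 lower (8.04% of genes). DESeq2 called 0 members in each of these, beside 2.14% of genes at 1 h against 0 h, 0.822% at 3 h against 0 h and 0.424% at 3 h against 1 h. With the discordant library mutant 3 h female 2 left out, edgeR called 0 members and 0.00576% of genes at 3 h against 0 h, and 0 members and 0.104% of genes at 3 h against 1 h. Directions moved with that library, since 30 of 57 members had a positive value at 3 h against 0 h with it and 39 without it. The log2 fold changes of Pcdhga2 in mutants were 0.17 ± 0.19 at 1 h and −0.07 ± 0.20 at 3 h (0.03 without that library), each against 0 h. Those of Pcdhb8 were −0.23 ± 0.19 and 0.12 ± 0.28 (0.30 without it). The response itself differed between genotypes in 0 members from 0 h to 1 h by edgeR (0% of 17907 genes; 0 members at an unadjusted p under 0.05; 0 by DESeq2). From 0 h to 3 h edgeR again called 0 members (0% of 17926 genes), with 3 higher and 1 lower at an unadjusted p under 0.05 (1.52% of genes) and 0 by DESeq2. Without the discordant libraries edgeR called 0 members and 0% of genes in both, with 8 higher and 1 lower from 0 h to 3 h at an unadjusted p under 0.05 (2.17% of genes). For Pcdhb8 this difference of responses was 0.93 ± 0.36, and for Pcdhga2 it was 0.30 ± 0.27 from 0 h to 1 h, both given as descriptions. The comparisons at different times share their baseline mice, and these values are therefore not independent.

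Between libraries labelled male and female, 46 of 57 members had lower values in males, including 11 of 11 alpha and 20 of 22 beta genes, with a median log2 difference of −0.10. Of all genes tested 48.8% had higher values in males, with a median of −0.0013. Many members vary together between mice, as described below, so their directions are not independent. EdgeR called 0 members, where 0.0825% of 18186 genes were called, and 10 were lower at an unadjusted p under 0.05, which 5.08% of genes reached. Without the discordant libraries 46 of 57 were again lower in males, 10 of 11 alpha and 20 of 22 beta genes among them, with a median of −0.09, and 17 were lower at an unadjusted p under 0.05 (7.78% of genes). The smallest p was that of Pcdhb11, whose level ran over 6.16, 8.55 and 11.5 CPM in the libraries labelled female (lowest, median and highest of 18) and 5.73, 6.83 and 9.42 CPM in those labelled male. The log2 difference was −0.30 ± 0.07 (edgeR adjusted p = 0.0569). DESeq2 called this 1 member (0.0715% of genes), and so did edgeR without the 2 libraries of discordant sex, at −0.32 (edgeR adjusted p = 0.0311; 0.082% of genes called). Choroid plexus markers also differed by labelled sex, with 6 of 6 higher in males, 4 of them at an unadjusted p under 0.05, a median log2 difference of 1.43, and a summed level of 43.0 to 5776 CPM (median 188) in females and 45.8 to 7983 CPM (median 1422) in males. Their part in the sex difference was not tested.

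Members were also compared with each other by how they deviated from their group mean over the 36 libraries. Over all 1596 pairs the median Pearson's r was 0.17, and it was 0.13 within the alpha cluster, 0.13 within the gamma cluster and 0.38 within the beta cluster. A block of adjacent beta genes, singled out after the values were seen, varied almost as one. The 21 pairs among Pcdhb2 to Pcdhb8 had a median r of 0.82 (0.78 without the discordant libraries) and ranged from 0.68 to 0.95, and Pcdhb1 had r of 0.63 to 0.82 with them. Pcdhb3 and Pcdhb6 were the closest pair. Pcdhgb5 and Pcdhgb8, which lie in the gamma cluster, moved with this block as well, with a median r of 0.71 over 14 pairs (0.64 without the discordant libraries), and r was 0.87 between Pcdhgb8 and Pcdhb3 (0.81 without the 2 libraries farthest from the median of Pcdhgb8). Downstream of the block, Pcdhb9 had r of −0.38 to −0.08 with Pcdhb2 to Pcdhb8 and Pcdhb12 −0.40 to −0.09, whereas Pcdhb11 had 0.37 to 0.52 and Pcdhb10 0.00 to 0.24. Further downstream Pcdhb16 had 0.56 to 0.63, Pcdhb19 0.45 to 0.72 and Pcdhb20 0.53 to 0.68 with the same block, beside 0.47 to 0.73 for Pcdhgb5, so this is not particular to adjacent genes. Pcdhgb8 had r of −0.53 with Pcdhb9 and −0.57 with Pcdhb12. In contrast, the 78 pairs among Pcdhb10 to Pcdhb22 had a median r of 0.34. These correlations are descriptions over 36 libraries, and their points share library depth and whatever each mouse carried over this chromosome.

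**Figure D5:**
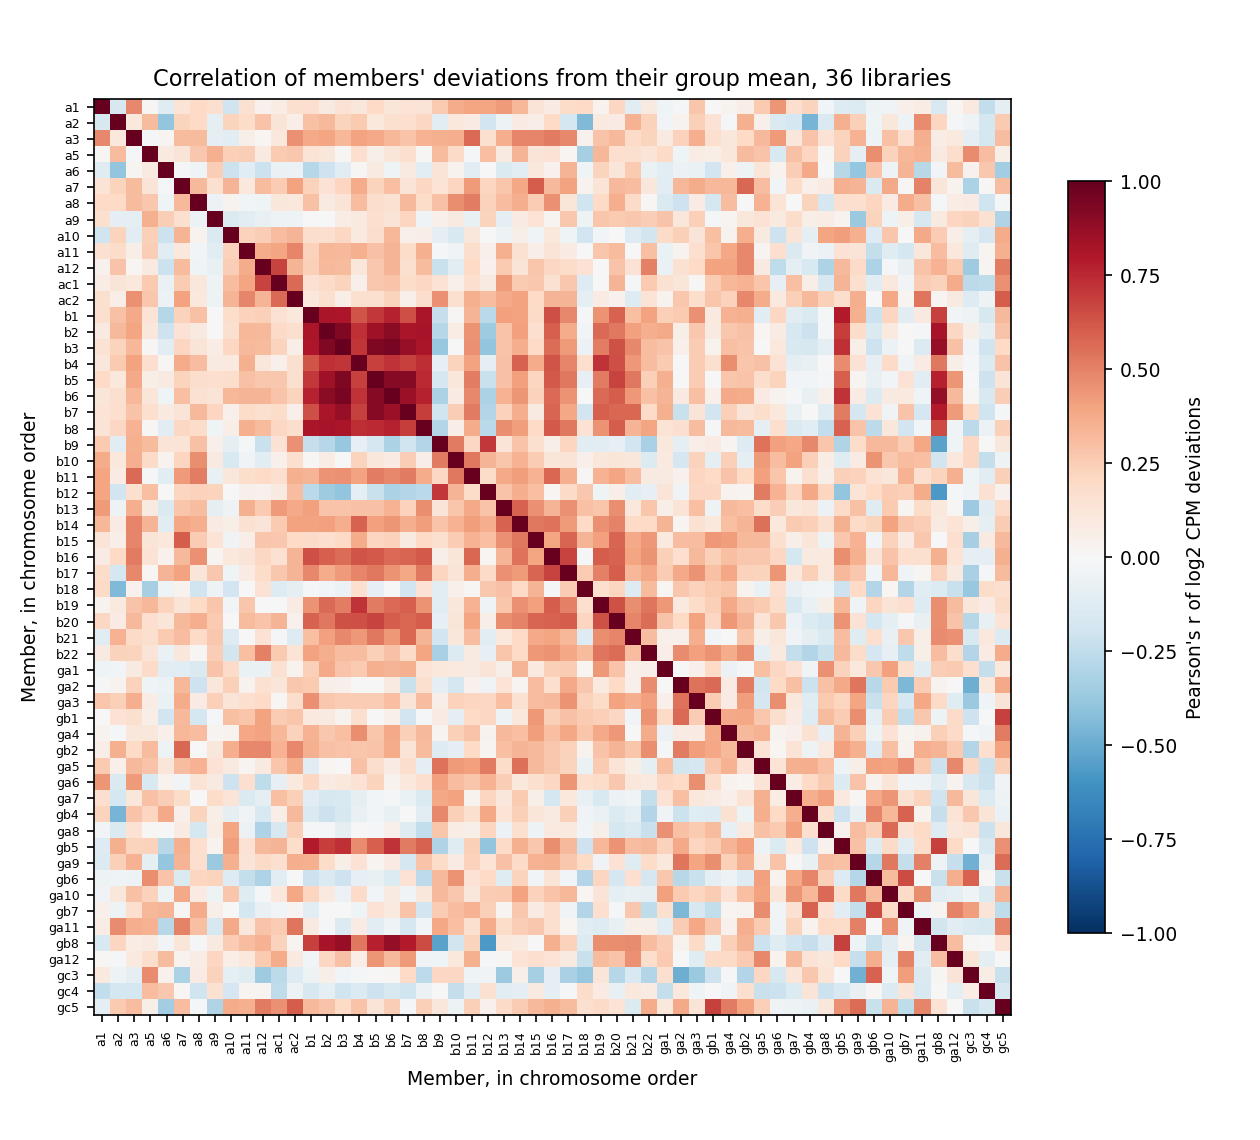
Pearson's r between the deviations of each pair of the 57 members from their group means, over 36 libraries, with members in chromosome order on both axes. The dark square from Pcdhb1 to Pcdhb8 and the stripes at Pcdhgb5 and Pcdhgb8 stand out from a background with a median r of 0.17.

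Pcdhga2 and Pcdhga9 had r of 0.54 with each other (0.45 without the 2 farthest libraries and 0.46 without the discordant ones). The members most like Pcdhga2 were Pcdhgb1 with r of 0.56, Pcdhga3 with 0.54 and Pcdhga9, and those most like Pcdhga9 were Pcdhgc5 with 0.56, Pcdhga2 and Pcdhga10 with 0.53. Both were negatively related to Pcdhgc3, at −0.49 and −0.48. Outside the family, among 18129 genes, those most like Pcdhga2 were Gask1b (r of 0.79), Epyc (0.69) and Flad1 (0.68), and those most like Pcdhga9 were Uba3 (0.77), D2hgdh (0.74) and Col22a1 (0.72), none of them on chromosome 18.

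Genes outside the family that were most like 3 members of this pattern lay on chromosome 18 and on other chromosomes. For Pcdhb8 the closest gene was Usp14 (r of 0.83), which codes for a deubiquitinase, on chromosome 18, followed by Crispld1 (0.76) on chromosome 1 and Nol4 (0.73) on chromosome 18. For Pcdhgb8 the closest was Gm8615 (0.92), annotated on chromosome 5, followed by Epb41l4a (0.85) and Stard4 (0.84) on chromosome 18, and the same trio led for Pcdhb3. An absolute r above 0.6 was reached with Pcdhgb8 by 4.51% of 421 other genes of chromosome 18 and by 0.0293% of 17043 genes of other chromosomes. For Pcdhb3 these shares were 5.23% and 0.0645%, and for Pcdhb8 5.70% and 0.293%. Pcdhga2 showed no such imbalance, with 0.238% on chromosome 18 and 0.194% elsewhere, and Pcdhga9 had 0.950% and 0.628%. The strain origin of this chromosome, which differs between F2 mice, was not tested.

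Genes known to act on the clusters or with their proteins were read against 1.18% of all genes called and 15.05% at an unadjusted p under 0.05 in the averaged genotype comparison. Among 12 genes of the CTCF and cohesin list edgeR called 0, and 1, Ctcf itself at a log2 fold change of 0.05, had an unadjusted p under 0.05. The most abundant gene of that list was Pds5b, a cohesin regulator, at 181 CPM and 0.04. Among 11 genes of DNA methylation and silencing 0 were called and 0 had an unadjusted p under 0.05, although all 11 values were positive. Of 11 nonclustered protocadherins 0 were called and 1 had an unadjusted p under 0.05, with Pcdh1 the most abundant at 191 CPM and −0.05. Of 16 genes coding for protocadherin partners 0 were called and 2 were lower at an unadjusted p under 0.05, with Cyfip2, a part of the WAVE complex that acts on actin, the most abundant at 1085 CPM and −0.05. The median log2 values of these lists lay between 0.01 and 0.03, beside 0.0004 for all genes.

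Markers of other cell types also differed in value between genotypes. All 6 choroid plexus markers were lower in mutants with an unadjusted p under 0.05, none was called, and their median log2 fold change was −1.85. Their summed level spanned 43.0 to 7983 CPM over the WT libraries and 53.0 to 3624 CPM over the mutant ones, and no marker was at 0 in any library. Over 36 libraries, the deviations of the log2 of that sum had r of −0.26 with Pcdhga2, −0.52 with Pcdhga9 and −0.40 with Pcdhb8. All 4 astrocyte markers had positive values and Gja1, a gap junction gene, was called at 0.13 (edgeR adjusted p = 0.0426). The summed astrocyte markers spanned 713 to 1025 CPM over the WT libraries and 870 to 1033 CPM over the mutant ones. The 4 striatal and 4 thalamic markers were all positive, 3 of each at an unadjusted p under 0.05 and none called, and the striatal sum spanned 20.01 to 40.4 CPM (WT) and 20.6 to 60.9 CPM (mutant), the thalamic sum 48.3 to 87.8 and 57.8 to 156 CPM. Pcdhga2 had r of −0.40 with the striatal and −0.34 with the thalamic sum and Pcdhga9 −0.38 and −0.31. All 4 oligodendrocyte markers had positive values with a median log2 fold change of 0.12, none at an unadjusted p under 0.05, and their sum spanned 3993 to 8050 CPM (WT) and 4677 to 9723 CPM (mutant). That sum had r of −0.25 with Pcdhga2, −0.38 with Pcdhga9 and −0.32 with Pcdhb8. Of the microglial markers 1 of 4 and of the endothelial ones 3 of 4 were positive, none at an unadjusted p under 0.05. Pcdhb8 had r of 0.39 with the summed dentate granule markers. Their median sums in WT and mutant mice were 426.1 and 435.7 CPM at 0 h, 490.8 and 505.8 at 1 h and 498.4 and 545.1 at 3 h. For CA1 markers these were 716.5 and 703.6, 803.5 and 780.1, and 785.7 and 722.6 CPM. For CA3 markers they were 227.4 and 245.9, 240.5 and 244.6, and 238.6 and 238.9 CPM. The ranges of the genotypes overlapped in each case. The part of any of these in the protocadherin values was not tested.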

How the data were processed

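Poly(A) RNA from the dorsal hippocampus of 36 mice was sequenced as paired-end reads. The authors aligned them to mm10 with STAR 2.7.8a and deposited counts per gene from featureCounts 2.0.1, and the values are raw counts. The members and gene lists were chosen with earlier results of these data known, and members were named by those lists and by level, spread and smallest p. Counts were tested with edgeR 4.0.16 (quasi-likelihood F-test, TMM scaling, a minimum count of 10, labelled sex as covariate) within the libraries of each comparison, and over all 36 for the averaged genotype and sex comparisons. P-values were adjusted by Benjamini-Hochberg over all genes, with a threshold of 0.05. CPM were scaled by TMM, and log2 CPM used a prior count of 2. DESeq2 1.42.0 was an alternative. The code was tested on simulated data. Each library is 1 mouse, so the spread is between animals. Coordinates are those of RefSeq in GRCm38.p6. No 2 libraries of a group held identical counts.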

Additional observations from a re-analysis of the deposited data

Results flagged for a closer look

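In 114 sets of 6 libraries (19 named members in 6 groups), 12 had 1 library far from the other 5, measured as its gap to the nearest over the whole range. Chance gives about 1 in 20 sets. Pcdhb1, Pcdha8 and Pcdhgb8 were named for their large spread, and each had such a set. That rate is therefore no reference for them, and nothing is read from the count. Pcdha12 had 3 of them, with 6.73 CPM in WT 0 h male 3 (others 8.34 to 9.08), 5.31 CPM in WT 1 h female 3 (others 7.79 to 9.04) and 5.96 CPM in the library labelled mutant 3 h female 2 (others 8.70 to 9.84). All of these were low. Pcdha4 had 0.017 CPM in the library labelled WT 1 h male 1, 0.014 CPM in WT 3 h female 2 and 0.047 CPM in mutant 3 h male 2, where the others were at 0. These are 1, 1 and 3 counts, any of which stands apart from a row of zeros by construction, so they say nothing beside the 9 other sets.

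Pcdhb8 reached 9.09 CPM in mutant 0 h female 2 (others 3.83 to 5.64), 1 of the 7 libraries on which its averaged call rests. Pcdhgc3 had 80.4 CPM in the library labelled mutant 3 h female 2 (others 70.2 to 72). Pcdhb17 had 23.6 CPM in mutant 1 h male 1 (others 16.8 to 18.8) and Pcdhb1 0.707 CPM in WT 3 h female 3 (others 0.083 to 0.221). Pcdha8 had 1.5 CPM in mutant 3 h female 1 (others 0.217 to 0.515) and Pcdhgb8 11.2 CPM in WT 0 h male 1 (others 7.64 to 8.92).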

How the results depend on the processing

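The averaged log2 fold change ran from 0.59 to 0.68 for Pcdhga2, 0.61 to 0.71 for Pcdhga9 and 0.50 to 0.65 for Pcdhb8 over all settings. Counts of called members moved as follows. At 1 h DESeq2 gave 2 and leaving out the discordant libraries 2, and leaving out 1 library gave 0 to 2, the 2 without the library labelled WT 1 h male replicate 1. At 3 h they gave 3 and 3, the fit on all 36 libraries gave 1, and leaving out 1 library gave 0 to 3, the 3 without the library labelled mutant 3 h female replicate 2. In WT mice DESeq2 gave 1 at 3 h against 0 h and 1 at 3 h against 1 h. The averaged count was 7 without the discordant libraries and 2 to 7 on leaving out 1 library, 6 without mutant 0 h male replicate 1 and 7 without mutant 3 h female replicate 2. Pcdhb8 lost its call without any of 7 libraries, namely WT 0 h male 2, mutant 0 h female 2, WT 1 h male 2, mutant 1 h male 1, WT 3 h male 3, mutant 3 h male 2 and mutant 3 h female 3. For sex DESeq2 gave 1, leaving out the discordant libraries 1 and leaving out 1 library 0 to 1. Per kb of all exon bases Pcdhgc5 had 14.2 and Pcdhgc3 13.4 CPM. Pcdhb8 at 1 h, at −0.05, ran from −0.15 to 0.040 on leaving out 1 library and was positive, at 0.029 and 0.040, without WT 1 h female replicate 1 or 3, and Pcdhgb4 averaged turned to −0.016 without the discordant libraries. The cause was not tested.

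Replicate numbers were not taken to pair the samples. Same-numbered libraries had a median r of 0.01 to 0.12, but without a value for differently numbered libraries this cannot settle pairing. With sex and replicate number as a block 3 members and 1.26% of genes were called in the averaged comparison. In the other genotype, time and response comparisons 0 members were called, with 0% to 0.214% of genes. The sex comparison was not run with this block. The median between-mouse SD was 0.242 to 0.246 under the settings tried. Depth limits Pcdha4, Pcdha8 and Pcdhb1.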
